A study of Homo sapiens with 6 samples.

Results

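The super elongation complex genes AFF1, AFF4, ELL, ELL2, ELL3, EAF1, MLLT1 and MLLT3 were examined in the expression table of Ewing sarcoma cells treated with THZ1, a covalent inhibitor of the transcriptional kinase CDK7. They were taken by symbol, from a list drawn up with earlier results of these data known, and all 8 were found among 27420 listed genes, each in a single row. Total RNA was sequenced in 6 libraries, 1 for each condition. A673 and SKNMC, both established Ewing sarcoma lines grown in DMEM with fetal bovine serum, were each exposed for 6 h to THZ1 at 50 nM, to THZ1 at 200 nM or to the vehicle DMSO. No group has a replicate, so no difference below is set against a replicate error, and every ratio compares 2 libraries. No test was run: a fit that takes the lines as blocks would leave 2 residual degrees of freedom and treat the lines as replicates of each other. Levels are in FPKM, a measure that corrects for the length of a transcript and the size of a library and so leaves out any change in total RNA per cell. All 8 Ewing sarcoma markers examined, among them CD99 and NKX2-2, were above 1 FPKM on average in both lines. Of 6 markers of other cell types, MYOG was listed at 0 in all 6 libraries, while PTPRC was between 7.90 and 13.1 FPKM in SKNMC and at most 0.0291 FPKM in A673, and KRT18 was between 73.8 and 143 FPKM in both lines. Their part in the results was not tested.

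Soon after initiation, RNA polymerase II pauses close to the promoter of many genes, and its release depends on the kinase P-TEFb (CDK9 with a cyclin T). The super elongation complex carries P-TEFb to such genes. AFF1 and AFF4 are its scaffolds, the ELL proteins speed up the polymerase by suppressing transient pausing, EAF1 binds and stimulates ELL proteins, and MLLT1 (ENL) and MLLT3 (AF9) hold YEATS domains that read acylated histones. Several members are fusion partners of MLL (KMT2A) in leukaemia.

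Promoter sequence from RefSeq (GRCh38.p14), 250 bases before to 50 bases after a start, was found for 7 members, AFF1 with 2 starts, and none for ELL2. The promoters of 3 members are shown because they stood at the extremes of the log2 ratio of FPKM + 1 to DMSO in A673. EAF1 was the highest at 50 nM, MLLT1 the lowest, and AFF1 the lowest at 200 nM. The 2 lowest places depend on the 1 FPKM added. With 0.1 added, ELL3 (-0.81) was below MLLT1 (-0.49) at 50 nM, and ELL2 (-1.53) was below AFF1 (-1.48) at 200 nM. The 3 promoters lie at chr3:15427348-15427647 on the plus strand (EAF1), chr19:6279926-6280225 on the minus strand (MLLT1) and chr4:86934761-86935060 on the plus strand (AFF1, first start). Capitals mark 3 motifs on either strand, the GC box GGGCGG, the CCAAT box and the ETS motif CCGGAAGT.
EAF1: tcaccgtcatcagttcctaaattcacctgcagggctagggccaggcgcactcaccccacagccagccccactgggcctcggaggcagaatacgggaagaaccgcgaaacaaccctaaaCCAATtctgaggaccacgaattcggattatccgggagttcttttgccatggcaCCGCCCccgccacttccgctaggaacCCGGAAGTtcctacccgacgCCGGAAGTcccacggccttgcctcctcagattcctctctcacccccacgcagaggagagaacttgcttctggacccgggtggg
MLLT1: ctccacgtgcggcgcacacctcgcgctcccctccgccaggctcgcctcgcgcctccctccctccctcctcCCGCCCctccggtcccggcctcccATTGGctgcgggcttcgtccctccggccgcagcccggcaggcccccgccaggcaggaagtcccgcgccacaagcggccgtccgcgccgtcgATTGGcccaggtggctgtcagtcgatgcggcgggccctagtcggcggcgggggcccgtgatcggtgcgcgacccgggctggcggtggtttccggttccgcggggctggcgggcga
AFF1: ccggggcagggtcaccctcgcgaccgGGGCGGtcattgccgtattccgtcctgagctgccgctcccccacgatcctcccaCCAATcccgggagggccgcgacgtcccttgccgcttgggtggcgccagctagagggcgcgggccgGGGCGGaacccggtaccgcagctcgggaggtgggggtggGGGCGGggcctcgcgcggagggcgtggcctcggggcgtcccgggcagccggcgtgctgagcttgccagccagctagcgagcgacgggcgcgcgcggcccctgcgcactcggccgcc

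All 8 promoters of the members held a GC box, against 45.0% of 35116 RefSeq promoters of the same length, and 5 held CCAAT, against 34.6%. The ETS motif, the class of site that the FLI1 part of EWS-FLI1 can bind, was found in the EAF1 promoter alone among the members, where it occurs at 2 positions, 53 and 33 bases before the start. It was in 4.14% of all promoters. The letters TATAAA and GGAAGGAA were in none of the 8, against 11.5% and 3.67% of all promoters, and CACGTG was in those of AFF4 and MLLT1, against 7.26%. The G and C content of the members' promoters ran from 60.3% to 77.7%. These shares are over promoters of all genes, silent ones included, so they do not show that the members differ from other active genes. A comparison with promoters of active genes alone was void, because 7865 of 10283 active symbols had an entry.

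Together the 8 genes summed in A673 to 79.6 FPKM under DMSO, 86.7 FPKM at 50 nM THZ1 and 39.7 FPKM at 200 nM, and in SKNMC to 86.2, 94.2 and 44.2 FPKM. In the deposited values their summed level was thus slightly above DMSO at the low dose and far below it at the high dose. The members' direction at the low dose depends on how the libraries are scaled, as given below. Changes of single genes are given as the log2 ratio of FPKM + 1, where -1 is a 2-fold lower value, beside all active genes, those above 1 FPKM on average over the 3 libraries of a line (10825 in A673, 11563 in SKNMC). All 8 members passed this level in SKNMC and 7 in A673, where ELL3 did not; counts below run over all 8.

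At 50 nM, 0 of 8 members were at least 2-fold lower than DMSO in either line, against 15.6% of active genes in A673 and 15.5% in SKNMC. No member was at least 2-fold higher either, against 0.600% and 0.649% of active genes. The median log2 ratio of the members was 0.12 in A673, where that of active genes was -0.25, and 0.087 in SKNMC, where that of active genes was -0.29. After scaling to the ribosomal protein median, the members' medians were below DMSO, at -0.086 in A673 and -0.21 in SKNMC. Those of active genes were then -0.46 and -0.62. In A673, 6 members stood above the median of active genes, all but ELL3 and MLLT1, and in SKNMC all 8 did. At 200 nM, the members' log2 ratios to DMSO ran from -1.30 to -0.61 in A673 and from -1.19 to -0.62 in SKNMC, and all 8 were below the median of active genes in each line (-0.36 and -0.53). Members at least 2-fold lower were 2 of 8 in A673, where 24.9% of active genes were, and 4 of 8 in SKNMC, where 27.3% were. The A673 count is close to its background. In SKNMC, MLLT3 (-1.01) and ELL3 (-1.02, at 0.281 FPKM) stood just past the threshold. A common sum gave 3 there (26.2% of active genes). Both counts also move with other scalings. They were 0 and 0 after scaling to the 75th percentile (16.1% and 13.1% of active genes). After scaling to the ribosomal protein median they were 7 and 8 (36.1% and 52.0%). Again 0 members were at least 2-fold higher, against 0.443% and 0.726% of active genes.

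**Figure D1:**
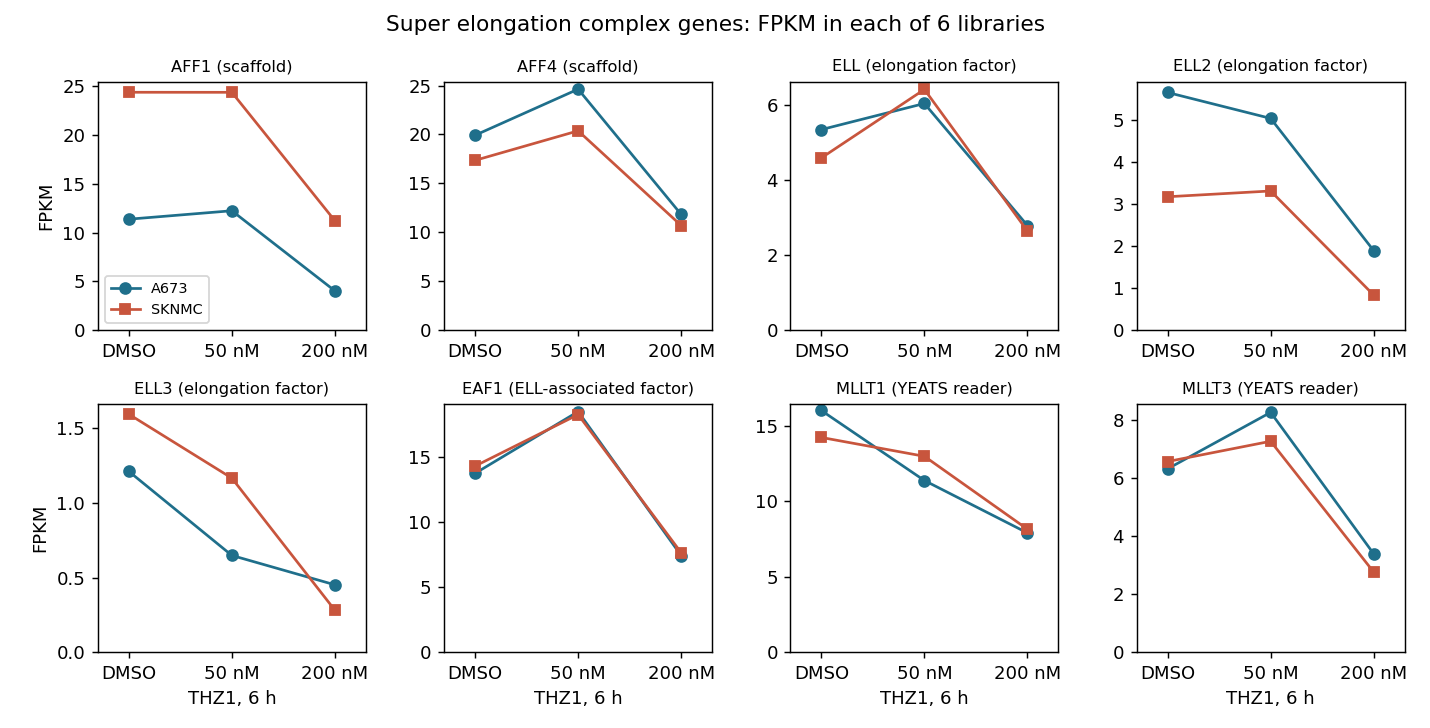
FPKM (y axis, from 0, a scale of its own in each panel) of each member with DMSO, 50 nM and 200 nM THZ1 (x axis), 1 library per point, circles for A673 and squares for SKNMC. In all 8 panels the 200 nM library is the lowest of its line, and EAF1, AFF4, ELL and MLLT3 are highest at 50 nM in both lines.

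The doses were then compared directly. From 50 nM to 200 nM, 4 of 8 members were at least 2-fold lower in A673 (AFF1, EAF1, MLLT3 and ELL2), where 7.63% of active genes were. In SKNMC 5 of 8 were (ELL2, EAF1, MLLT3, AFF1 and ELL), where 8.66% of active genes were. AFF4 in A673 stood just outside the threshold, with a log2 ratio of -0.9988. The median log2 ratio of the members was -1.03 in A673 and -1.04 in SKNMC, against -0.013 and -0.14 for active genes. All 8 were lower at 200 nM than at 50 nM in both lines, under the deposited scaling and under 3 others. The share of active genes lower in both lines was not counted. Since the medians of active genes were also negative in the deposited values, this direction alone does not set the members apart. The 3 comparisons within a line share libraries, so an error in the 50 nM library would move its ratio to DMSO and the ratio between the doses in opposite directions.

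Directions shared by both lines were counted next. AFF4, ELL, EAF1 and MLLT3 were above DMSO at 50 nM in both lines, which held for 22.6% of the 10290 genes active in both, and all 8 members were below DMSO at 200 nM in both lines, which held for 64.8%. The combination, above DMSO at 50 nM and below it at 200 nM in both lines, was found in those 4 of 8 members and in 7.13% of genes. This combination was chosen with earlier results of these data known. The direction at 50 nM depends on how the libraries are scaled: 5 members had the combination with a common sum (7.65% of genes), 6 after scaling to the 75th percentile (7.04%), and 0 after scaling to the ribosomal protein median (3.42%). Relative to the median of active genes, the members' median at 50 nM lay between 0.36 and 0.40 log2 units above it in both lines under the 4 scalings. This closeness was largely fixed in advance, since each rescaling shifts members and active genes of a library together.

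**Figure D2:**
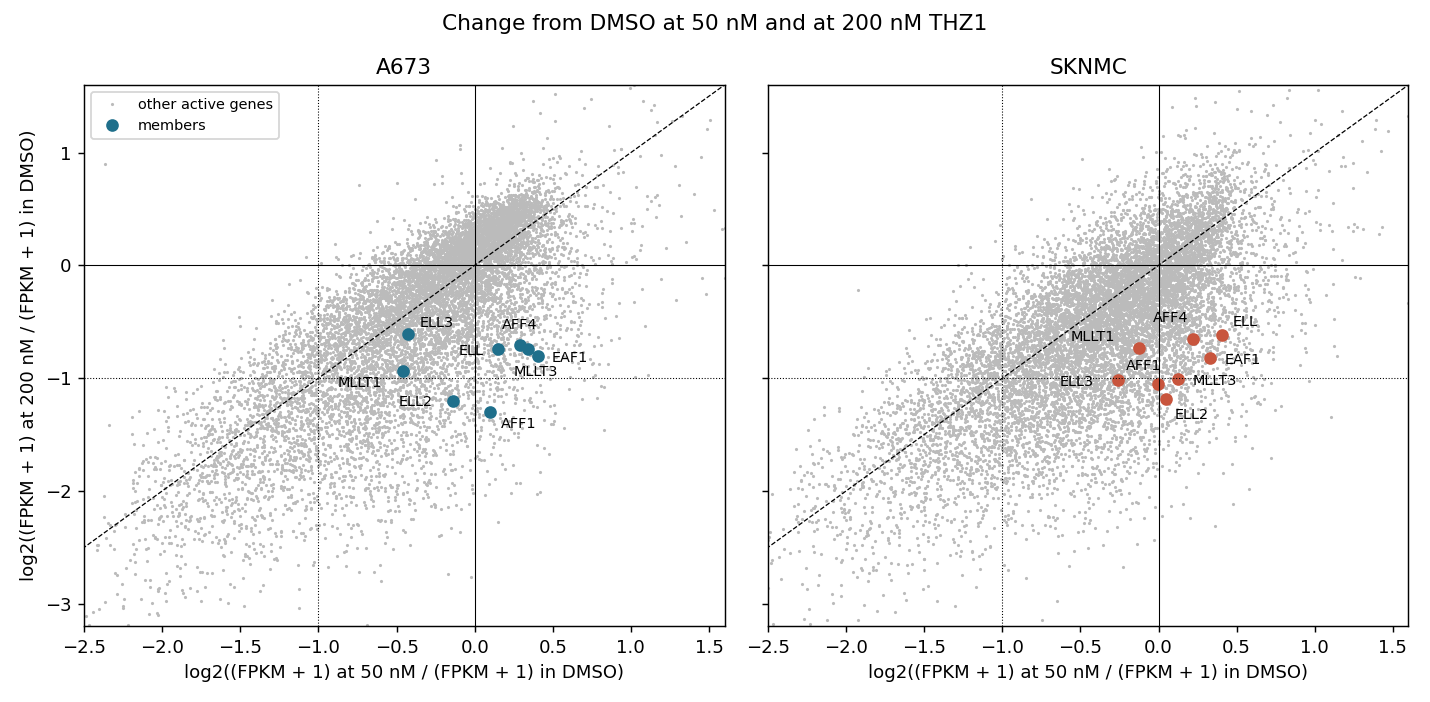
Log2 ratio of FPKM + 1 to DMSO at 50 nM (x axis) and at 200 nM (y axis) for active genes (grey) and the 8 members (coloured, named), with A673 left and SKNMC right; the dashed line marks equal change at the doses and dotted lines mark a 2-fold lower value. All 8 members lie below the dashed line in both panels. The axes leave out 66 active genes in A673 and 62 in SKNMC.

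AFF1 (ENSG00000172493, chr4:87856153-88062206 in hg19, plus strand), known as AF4 from its fusions with MLL, was at 11.4, 12.2 and 4.03 FPKM in A673 under DMSO, 50 nM and 200 nM. In SKNMC its levels were 24.4, 24.4 and 11.2 FPKM. Its level was thus nearly equal with DMSO and at 50 nM in each line, and it had the lowest log2 ratio of the members at 200 nM in A673, -1.30, with -1.06 in SKNMC. From 50 nM to 200 nM its log2 ratio was -1.40 in A673, and 2.65% of active genes had a lower value. AFF4 (ENSG00000072364, chr5:132211070-132299326, minus strand), the other scaffold, was at 19.9, 24.6 and 11.8 FPKM in A673 and at 17.4, 20.4 and 10.7 FPKM in SKNMC. It was the most highly expressed member in all 3 A673 libraries, and AFF1 was in all 3 SKNMC libraries. Its log2 ratio to DMSO was 0.29 and 0.22 at 50 nM and -0.71 and -0.65 at 200 nM, so both lines gave close values at each dose.

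ELL (ENSG00000105656, chr19:18553472-18632937, minus strand), the founding elongation factor of its family, was at 5.34 FPKM with DMSO, 6.03 FPKM at 50 nM and 2.78 FPKM at 200 nM in A673, and at 4.58, 6.40 and 2.64 FPKM in SKNMC. At 50 nM in SKNMC it had the highest log2 ratio of any member, 0.41, and 93.9% of active genes were lower. ELL2 (ENSG00000118985, chr5:95220801-95297775, minus strand), known as the form induced in antibody-secreting plasma cells, was at 5.65, 5.04 and 1.89 FPKM in A673 and at 3.17, 3.31 and 0.834 FPKM in SKNMC. At 200 nM it kept 26.3% of its DMSO level in SKNMC and had a log2 ratio of -1.19 there and of -1.20 in A673. With 0.1 FPKM added in place of 1, these ratios were -1.81 in SKNMC and -1.53 in A673, so their closeness depends on the amount added. ELL3 (ENSG00000128886, chr15:44064797-44069741, minus strand), described as a factor of enhancers in stem cells, was the lowest member in every library, at 1.21, 0.649 and 0.452 FPKM in A673 and at 1.59, 1.17 and 0.281 FPKM in SKNMC. It was lower at each dose step in both lines, but at these levels its ratio depends on the pseudocount. Its log2 ratio at 200 nM in SKNMC was -1.02 with 1 FPKM added and its level there was 17.6% of DMSO. ELL3 also overlaps RP11-296A16.1 on the same strand over 4.93 kb, which was at most 0.0400 FPKM, and it overlaps PDIA3 over 0.681 kb and SERF2 over 0.457 kb on the other strand, which were at 165 FPKM or more in every library and higher with THZ1 than with DMSO. Whether fragments were counted by strand is not given in the sources used here.

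EAF1 (ENSG00000144597, chr3:15468861-15484120, plus strand) had nearly the same levels in both lines, 13.8, 18.5 and 7.43 FPKM in A673 and 14.3, 18.3 and 7.65 FPKM in SKNMC. Its log2 ratio to DMSO was 0.40 and 0.33 at 50 nM, above 94.5% and 91.1% of active genes, and -0.81 and -0.82 at 200 nM, with 31.1% and 34.7% of active genes lower. Over 13.2 kb it overlaps METTL6 on the other strand, which had the opposite direction at 50 nM, with log2 ratios of -1.06 in A673 and -1.14 in SKNMC. At 200 nM METTL6 had the same direction as EAF1, with -1.12 in A673 and -1.51 in SKNMC. Whether the overlap bears on the EAF1 values was not tested. The EAF1 paralog EAF2 was at 4.63, 3.23 and 3.95 FPKM in A673 and at 2.68, 1.03 and 1.49 FPKM in SKNMC, lowest at 50 nM in both, where EAF1 was highest.

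MLLT1 (ENSG00000130382, chr19:6212965-6279959, minus strand) was at 16.0, 11.4 and 7.89 FPKM in A673 and at 14.2, 13.0 and 8.14 FPKM in SKNMC, lower at each dose step in both lines. Among the 7 members above 1 FPKM on average in both lines it alone was below DMSO at 50 nM in both lines in the deposited values, with log2 ratios of -0.46 and -0.12. ELL3, outside those 7, was also below DMSO in both lines (-0.42 and -0.26). After scaling to the ribosomal protein median, AFF1 and ELL2 were too. After scaling to the 75th percentile, MLLT1 in SKNMC was above DMSO (0.14). MLLT3 (ENSG00000171843, chr9:20341662-20622542, minus strand) was at 6.32, 8.27 and 3.39 FPKM in A673 and at 6.57, 7.27 and 2.76 FPKM in SKNMC. Its log2 ratio was 0.34 and 0.13 at 50 nM and -0.74 and -1.01 at 200 nM. In the deposited values these YEATS readers thus parted at 50 nM and were both below DMSO at 200 nM.

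**Figure D3:**
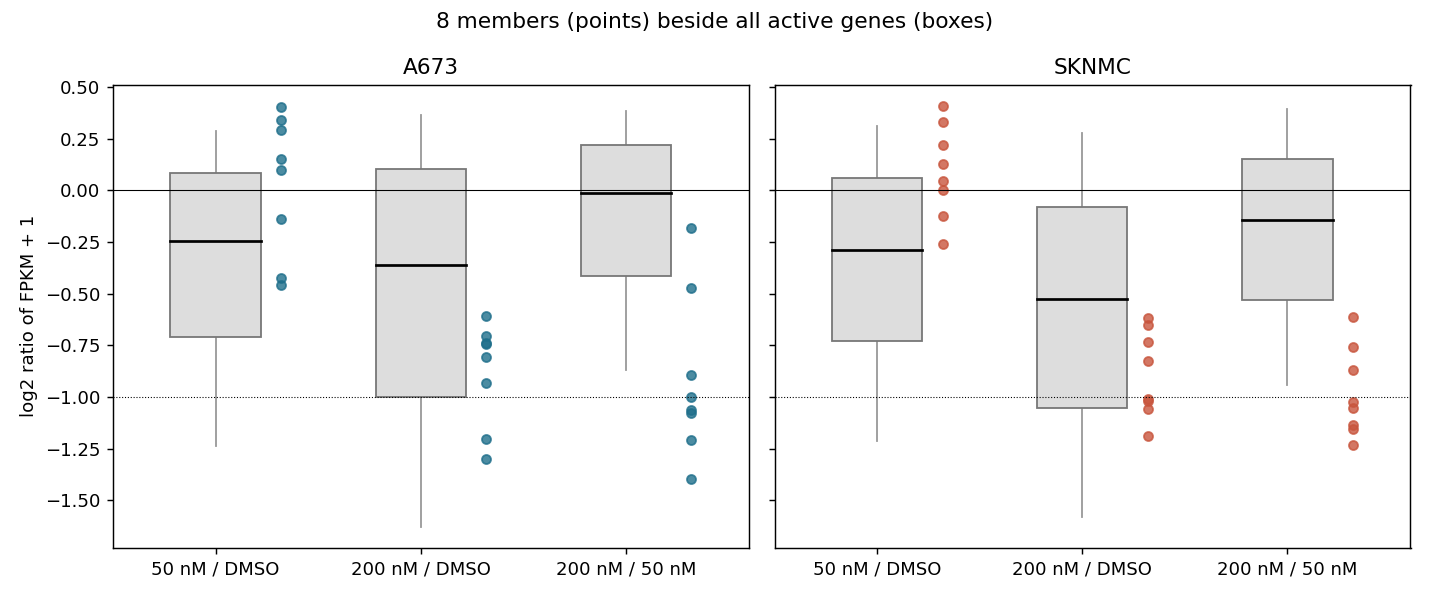
Log2 ratio of FPKM + 1 (y axis) for the 3 comparisons within each line (x axis); boxes span the 25th to 75th percentile of active genes with the median as a line, grey whiskers the 10th to 90th percentile, and each point is a member; the dotted line marks a 2-fold lower value. From 50 nM to 200 nM the members center on -1.03 in A673 and -1.04 in SKNMC and lie below the boxes, except ELL3 in A673 at -0.18.

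Ratios between paralogs within a library do not depend on the scaling of that library, and they show which member of a family carried its level. AFF1 relative to AFF4 was 0.571, 0.497 and 0.341 in A673 under DMSO, 50 nM and 200 nM, and 1.41, 1.20 and 1.05 in SKNMC. The AFF4 share was thus larger at each dose step in both lines, from 63.6% to 74.6% of the summed AFF level in A673, and the lines differed in which scaffold was higher. ELL relative to ELL2 was 0.944, 1.20 and 1.47 in A673 and 1.44, 1.94 and 3.16 in SKNMC, also in one direction in both lines. The share of ELL in the summed level of the 3 ELL genes went from 43.7% to 54.3% in A673 and from 49.0% to 70.3% in SKNMC. MLLT1 relative to MLLT3 was not ordered by dose, at 2.53, 1.37 and 2.33 in A673 and 2.16, 1.78 and 2.95 in SKNMC, with the lowest ratio at 50 nM in both. ELL relative to ELL3 was 4.403, 9.30 and 6.16 in A673 and 2.87, 5.49 and 9.38 in SKNMC, and rests on the low ELL3 values.

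**Figure D4:**
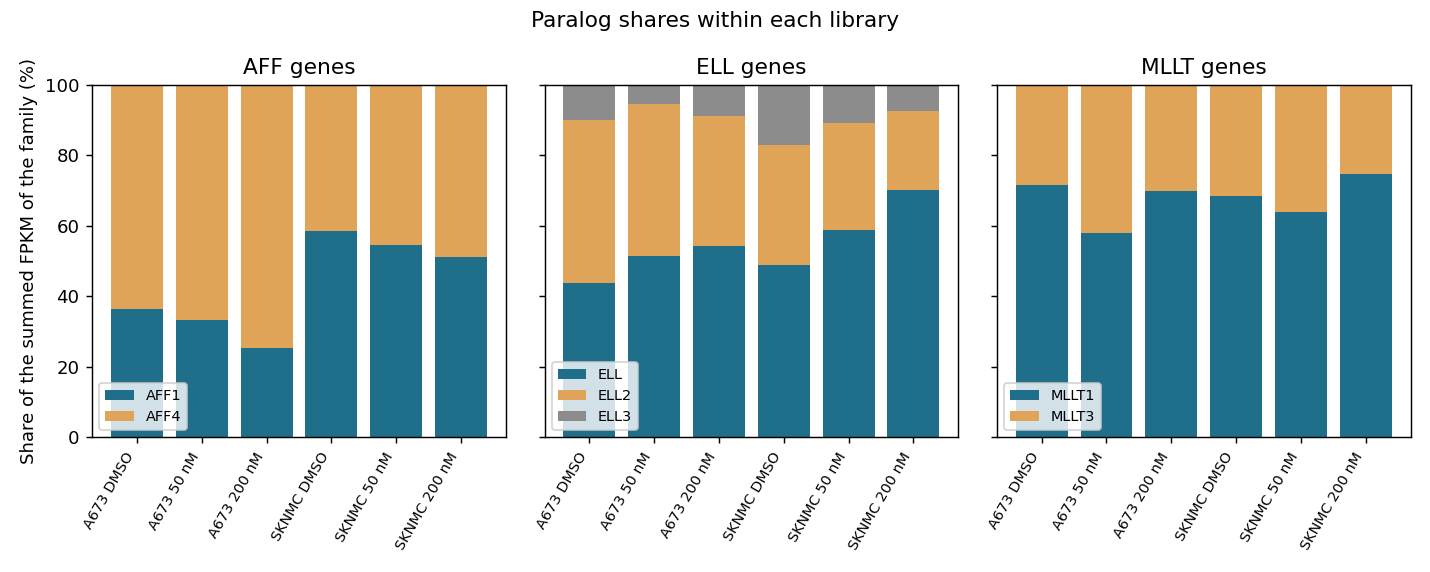
Share of each paralog in the summed FPKM of its family (y axis, percent, from 0) in each of 6 libraries (x axis) for the AFF, ELL and MLLT members. The AFF1 and ELL2 shares shrink with dose in both lines, while the MLLT1 share is lowest at 50 nM.

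Without drug the lines had similar levels of most members. The ratio of A673 to SKNMC with DMSO was between 0.760 and 1.16 for 6 members, 1.78 for ELL2 and 0.467 for AFF1. By the log2 ratio of FPKM + 1, AFF1 (-1.04) was the 1 member at least 2-fold lower in A673, where 8.87% of the genes active in both lines were; after scaling to the ribosomal protein median it was not. The order of levels in SKNMC with DMSO was AFF1, AFF4, EAF1, MLLT1, MLLT3, ELL, ELL2 and ELL3. In A673 it was AFF4, MLLT1, EAF1, AFF1, MLLT3, ELL2, ELL and ELL3. Neighbours in these orders cannot be separated from the spread between cultures with 1 library each.

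The members differ widely in gene span, from 4.95 kb for ELL3 and 15.3 kb for EAF1 to 206 kb for AFF1 and 281 kb for MLLT3. Between the doses, the longest genes had lower ratios than the shortest. With the genes active in both lines cut by span into 5 groups of 2058, the median log2 ratio from 50 nM to 200 nM was 0.13 in the shortest group and -0.21 in the longest in A673, and -0.0071 and -0.26 in SKNMC. At 50 nM against DMSO the longest group was the higher, with -0.30 in the shortest group and -0.079 in the longest in A673 and -0.34 and -0.13 in SKNMC, and at 200 nM against DMSO the groups were not ordered by span. From 50 nM to 200 nM all 8 members were below the median of their own span group. Their difference from it ran from -1.26 (EAF1) to -0.32 (ELL3) in A673 and from -1.04 (EAF1) to -0.33 (MLLT1) in SKNMC.

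Among the partners of the complex, both cyclins of P-TEFb were higher than DMSO at 50 nM and lower at 200 nM in both lines, while the kinase was lower at both doses. CCNT1, the main cyclin of P-TEFb, was at 12.1, 17.3 and 3.12 FPKM in A673 and at 16.6, 23.4 and 4.20 FPKM in SKNMC, so its log2 ratio from 50 nM to 200 nM was -2.15 and -2.23. CCNT2 was at 10.97, 18.7 and 8.19 FPKM in A673 and at 13.1, 29.7 and 11.6 FPKM in SKNMC. CDK9 was at 23.3, 12.0 and 12.3 FPKM in A673 and at 20.3, 13.0 and 11.7 FPKM in SKNMC. MEPCE, the capping enzyme of 7SK RNA, which holds P-TEFb inactive, was the 1 gene of the partner lists at least 2-fold lower in all 4 comparisons with DMSO, at 34.4, 6.16 and 5.19 FPKM in A673 and 42.6, 11.2 and 6.71 FPKM in SKNMC.

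Over 40 listed genes of P-TEFb and 7SK, the pausing factors DSIF and NELF, the PAF1 and DOT1L complexes, the little elongation complex, other elongation factors and AF4 and EAF relatives, 5 were at least 2-fold lower at 200 nM than at 50 nM in A673 and 5 in SKNMC, where 7.63% and 8.66% of active genes were, with medians of -0.042 and -0.17. P-TEFb and 7SK had medians of -0.21 and -0.40. The PAF1 complex had medians of -0.56 and -0.73 and the little elongation complex, which shares ELL proteins and acts at small nuclear RNA genes, had -0.45 and -0.52, both between those of the members and those of active genes. In the little elongation complex USPL1 was at -1.60 and -1.59, and ICE1 (listed as KIAA0947) at -1.07 and -0.88. Its other listed genes did not share this drop, with ICE2 (listed as NARG2) at 0.17 and 0.0094 and ZC3H8 at 0.26 and -0.17. The pausing factors had medians of 0.18 and -0.048 and the DOT1L complex, which binds MLLT1 and MLLT3, had -0.13 and 0.27. Like CCNT1 and CCNT2, the PAF1 complex subunits CTR9 and CDC73 and elongin A (listed as TCEB3) were above DMSO at 50 nM and below it at 200 nM in both lines. CTR9, CDC73, elongin A, USPL1, ICE1, ICE2, ZC3H8, EAF2, METTL6, JUN, MYC, FOS, EGR1, HSPA1A and HSPA1B were named after their values were seen. AFF2 and AFF3, the other AF4 family genes, were listed at 0 or at most 0.00215 FPKM in all 6 libraries. A 0 in this table can be a failed estimate, since the abundant EEF1A1 was at 4400 FPKM in SKNMC with DMSO and listed at 0 in both SKNMC libraries with THZ1. No member was listed at 0.

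**Figure D5:**
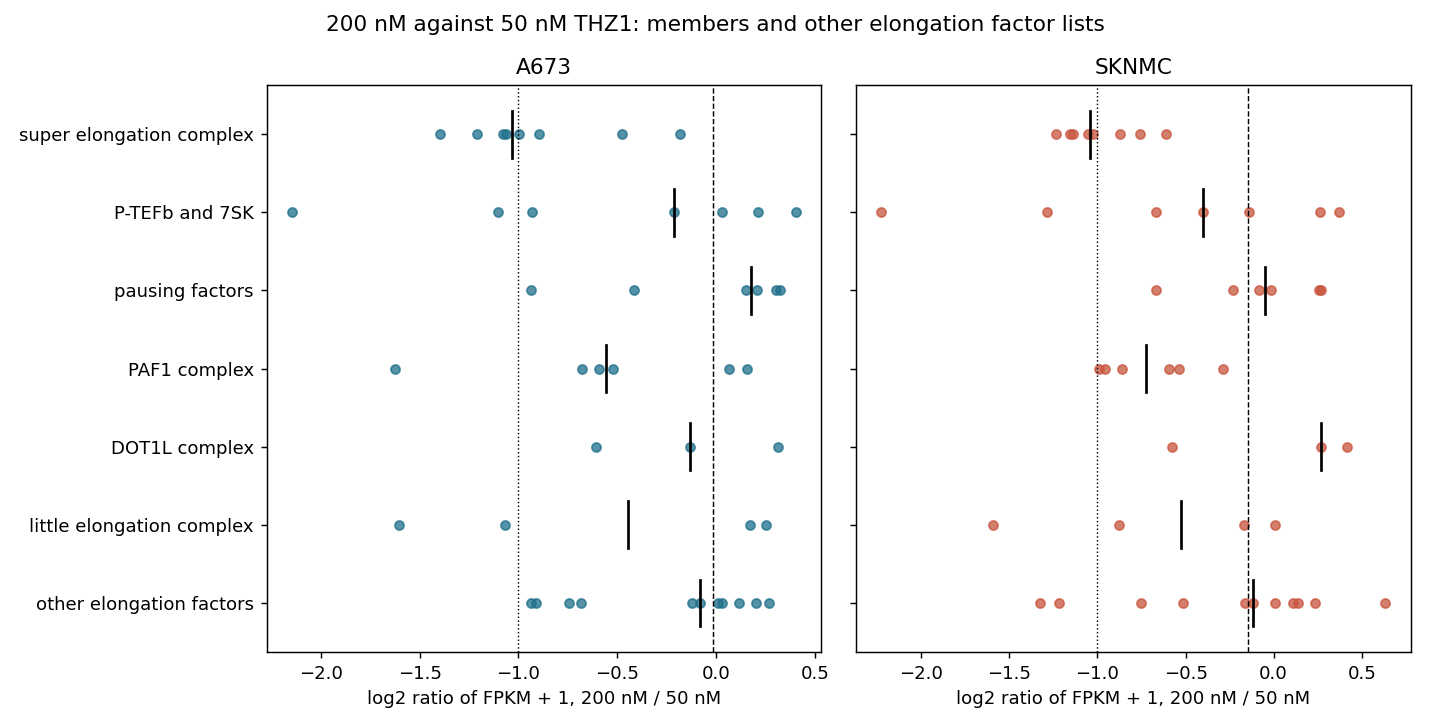
Log2 ratio of FPKM + 1 at 200 nM to 50 nM (x axis) for each gene (points) of the super elongation complex and 6 partner lists (y axis), with list medians as black bars, the median of active genes as a dashed line and a 2-fold lower value as a dotted line. The members center near -1 in both lines, and the lists of pausing factors and other elongation factors near the median of active genes.

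Of 9 rapid-response genes, the class at which the complex is best known to act, 2 were at least 2-fold higher than DMSO at 50 nM in A673 and 3 in SKNMC, and at 200 nM 4 and 2 were, against 0.600%, 0.649%, 0.443% and 0.726% of active genes. At least 2-fold lower were 0 and 1 at 50 nM and 1 and 1 at 200 nM, against 15.6%, 15.5%, 24.9% and 27.3% of active genes. JUN, another AP-1 subunit, was below DMSO in all 4 comparisons, with log2 ratios of -0.60 and -0.61 at 50 nM and -1.32 and -0.96 at 200 nM. JUNB, also of AP-1, was at least 2-fold higher in all 4 comparisons, at 12.0, 37.2 and 51.9 FPKM in A673 and 27.1, 81.9 and 134.6 FPKM in SKNMC. Its level was thus highest at 200 nM, but 5 of the 9 genes were lower at 200 nM than at 50 nM in each line. Among those, HSPA1A was above DMSO at 50 nM (0.65 in A673 and 0.43 in SKNMC) and below it at 200 nM (-0.67 and -0.42). HSPA1B was also highest at 50 nM in both lines. MYC was at 101.2, 90.9 and 54.5 FPKM in A673 and at 197.5, 166.8 and 76.8 FPKM in SKNMC, lower at each dose step. FOS was at 8.54, 17.1 and 31.1 FPKM in A673 and at 13.98, 18.9 and 22.8 FPKM in SKNMC, higher at each dose step. EGR1 was at 12.7, 13.8 and 53.4 FPKM in A673 and at 2.38, 0.484 and 1.13 FPKM in SKNMC, so the lines differed.

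By distance over the 4 log2 ratios to DMSO, the closest pair of members was AFF4 and ELL (0.24 log2 units), followed by AFF4 and EAF1 (0.26), EAF1 and MLLT3 and AFF1 and ELL2 (0.29 each). The farthest pair was ELL3 and EAF1 (1.05). The paralogs lay apart, at 0.78 for AFF1 and AFF4, 0.86 for ELL and ELL2 and 0.90 for MLLT1 and MLLT3, so each scaffold was closer to a member of another family than to its own paralog. Among the other 10289 genes active in both lines, those closest to AFF4 were ZBTB44 (0.055) and USP3 (0.11), those closest to EAF1 were TP53BP2 (0.055) and GNA13 (0.11), and those closest to ELL2 were UBN1 (0.082) and EGLN1 (0.10). For AFF1 they were MEGF9 (0.14) and XPO6 (0.15), for ELL CCDC88C (0.085) and LGR4 (0.12), for MLLT1 VHL (0.077) and PHF8 (0.10), and for MLLT3 GAREM (0.15) and SPRED1 (0.16).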

How the data were processed

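RNA-seq values of 6 libraries from A673 and SKNMC cells were used. The authors prepared TruSeq libraries, sequenced 100-bp read pairs, aligned them to hg19 with STAR and Ensembl 75 and, per their methods, estimated FPKM with StringTie, while the submitters' processing notes name Cufflinks. The deposited table also holds 4 columns of the authors' log2 fold changes, which were not used. Its title speaks of averages, the labels give 1 library per condition, and each column was treated as 1 library. FPKM holds no read counts, and the steps between low values were too diffuse (at most 2.57% of low genes shared a ratio) to give relative depth, so the depth is unknown and no counting interval is given.

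Changes are log2 ratios of FPKM with a pseudocount of 1, and the fold threshold was 2. Active genes were above 1 FPKM on average over the 3 libraries of a line. The members and lists were chosen with earlier results of these data known. Named are the members, partners past 2-fold in the same direction in all 4 comparisons with DMSO (at most 4 a list), CDK9, CCNT1 and CCNT2, and for each member active in both lines the 2 genes at the smallest Euclidean distance; others are said to be named later. Alternatives were a pseudocount of 0.1, 3 rescalings, a 1.5-fold threshold and other definitions of active genes. Gene overlaps came from GENCODE release 44 on GRCh37, the build of the table, and promoters from RefSeq on GRCh38.p14, whose coordinates were not joined to it. Steps were tested on data with planted changes, with numpy 2.4.6 and pandas 2.3.3.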

Additional observations from a re-analysis of the deposited data

Results flagged for a closer look

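At 50 nM THZ1, 2 members had opposite directions in the lines, and with 1 library per condition these differences were not tested. The log2 ratio of AFF1 to DMSO was 0.0976 in A673 and -0.000335 in SKNMC, the latter from levels that were nearly equal. That of ELL2 was -0.14 in A673 and 0.0467 in SKNMC. At 200 nM no member had opposite directions in the lines.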

How the results depend on the processing

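The count of members at least 2-fold lower was the value most dependent on the processing. At 200 nM against DMSO the deposited values gave 2 in A673 and 4 in SKNMC. Division by the 75th percentile of active genes gave 0 and 0 (16.1% and 13.1% of active genes), division by the ribosomal protein median 7 and 8 (36.1% and 52.0%), and a 1.5-fold threshold 8 and 8 (39.9% and 46.9%). A pseudocount of 0.1 gave 4 in A673, but the share of active genes at that setting was not counted, so this 4 has no background. From 50 nM to 200 nM, where the counts were 4 and 5, the 75th percentile gave 2 and 1 (6.22% and 5.07% of active genes), and the 1.5-fold threshold gave 8 in SKNMC (22.7%). With DMSO, the ribosomal protein median gave 0 members lower and 1 higher in A673 (4.76% and 16.9% of active genes). The 1.5-fold threshold gave 1 higher (16.6%). The change of the ELL:ELL3 ratio at 200 nM in SKNMC went from 0.40 to 1.38 with a pseudocount of 0.1. The scalings shifted the median of active genes by up to 0.48 (75th percentile) and -0.50 (ribosomal protein median), both in SKNMC at 200 nM, and all members with them. Which scaling is closest to RNA per cell was not tested. Relative to active genes, the members' median from 50 nM to 200 nM lay between -1.05 and -1.02 in A673 and between -0.91 and -0.85 in SKNMC under all 4 scalings. That these ranges are narrow was largely fixed in advance, because a rescaling moves members and active genes of a library together. Of 56 log2 ratios of single members, 5 moved by 1.5-fold or more with a pseudocount of 0.1, and 0 did under each of 3 rescalings. A rescaling multiplies every gene of a library by 1 factor, so this 0 reflects the size of the factors. It is no check of single members. No fit with the line as a block was run, since it would treat the lines as replicates of each other.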
